A study of Mus musculus with 25 samples.

Results

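The comparison described here sets mouse macrophage cultures exposed to 2.1 mM hypochlorous acid (HOCl) against cultures exposed to 0.14 mM. It takes 6 of the 25 arrays of a dose series, the 3 arrays labelled 2.1 mM and the 3 labelled 0.14 mM, taken by their dose labels. This pair of doses was picked for comparison because the replicates of each agreed closely. Both groups were cells of the line RAW 264.7, grown nearly to confluence in medium with serum and given HOCl in that medium for 6 h before total RNA was isolated. The remaining arrays were 4 at 0 mM and 3 at each of 0.35, 0.7, 1.4, 2.8 and 3.5 mM, and each replicate had an Affymetrix mouse whole-genome array of its own. The labels call the replicates biological without naming separate cultures or days, so the p-values measure the spread between these samples only. RAW 264.7 is 1 established line of virus-transformed macrophages, and the findings refer to that line in culture.

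HOCl is the oxidant that neutrophils form from chloride and hydrogen peroxide with myeloperoxidase. It reacts fastest with thiols, so cells meet it with glutathione, thioredoxin and the genes that the transcription factor NRF2 switches on when its inhibitor KEAP1 is oxidized. Oxidized proteins are refolded by chaperones or degraded by the proteasome. Macrophages respond to danger signals through NF-kB with cytokines, chemokines and prostaglandin enzymes.

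At 2.1 mM, 1317 of 18193 measured genes were higher and 1201 were lower than at 0.14 mM (limma, Benjamini-Hochberg adjusted p under 0.05, the threshold for every statement that a gene rose or fell). These counts are 7.24% and 6.6% of the genes. The change was at least 4-fold for 76 of the genes that rose and 50 of those that fell, and at least 8-fold for 27 and 6. Of 45037 probe sets 5495 passed (12.2%), 3226 higher and 2269 lower, and the median log2 difference of all genes was -0.01. Each gene was read from its single brightest probe set, and all values are log2 signals with the median of each array at 0. Of the genes that passed, 1549 had several probe sets, and 93 had probe sets that passed in opposite directions. Values of different genes cannot be compared with each other, since probes differ in brightness. The number of arrays limits the precision of every value.

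The p-values rest on a spread pooled over all 25 arrays. The doses were picked for close replicates, so their small spread is a matter of selection, with a median SD of 0.104 at 2.1 mM and 0.12 at 0.14 mM against 0.195 at 0 mM and 0.202 at 0.35 mM. Over probe sets, which are not independent of one another, Pearson's r between arrays was 0.995 to 0.997 within 2.1 mM, 0.991 to 0.997 within 0.14 mM, and 0.957 to 0.970 across the doses. When only the 6 arrays were fitted, 17.9% of genes were higher and 18.4% lower. The 3 arrays of one dose lay entirely above or below those of the other for 50.4% of all genes, so that a lack of overlap is common here. In place of 5495 probe sets, 3022, 2833 and 3201 passed without 2.1 mM replicate 1, 2 or 3, and 2891, 3691 and 3084 without 0.14 mM replicate 1, 2 or 3.

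A control measure differs with the doses. Bacterial poly-A control transcripts, read at their 5' ends by 8 probe sets, averaged 2.21, 2.39 and 1.86 on the 2.1 mM arrays and 0.70, 0.77 and 0.62 on the 0.14 mM arrays. Within these 6 arrays the level of the controls and the dose cannot be told apart. A fit of all 25 arrays with the control level as a term, which rests on replicate 3 of 0.35 and 0.7 mM, called 11 probe sets (0.0244%), 8 higher and 3 lower, with 3641 at an unadjusted p under 0.05. Of the 150 named genes that passed without the term, all 150 kept their direction with it and 4 passed, which were Hmox1, Srxn1, Gss and Ptgr1. The cells carried macrophage markers in both groups, with 17 of 23 listed markers at least 4-fold above the array median, and Csf1r, the receptor for macrophage colony-stimulating factor, had 7.55, 7.5 and 7.45 at 2.1 mM and 7.73, 7.89 and 7.83 at 0.14 mM (adjusted p = 0.214).

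**Figure D1:**
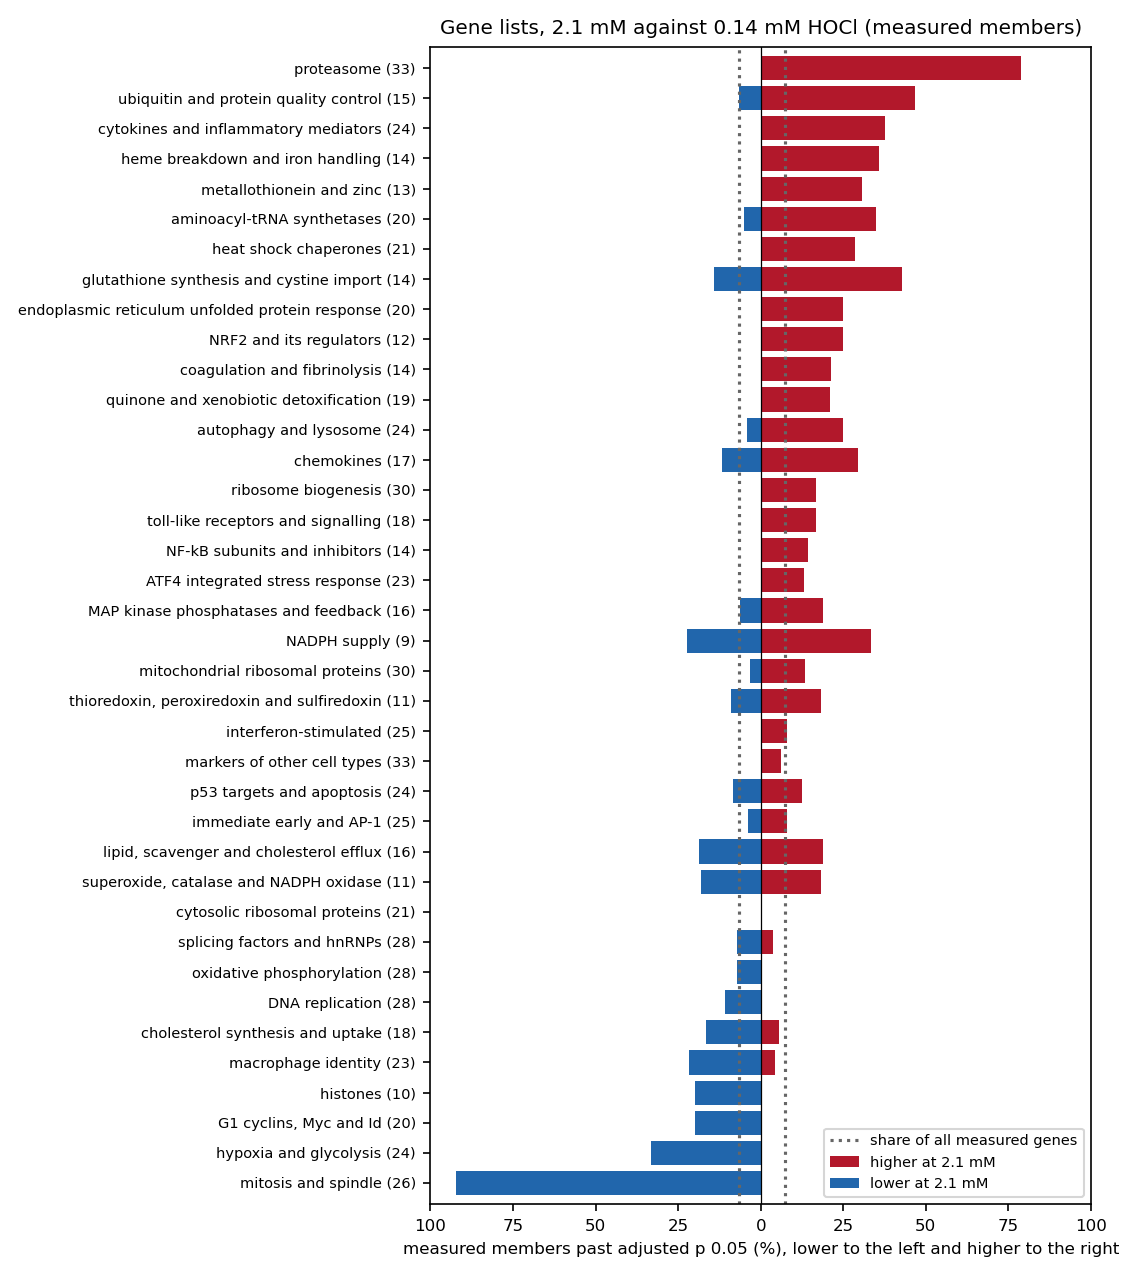
Share of the measured members of each of 38 gene lists that passed at adjusted p 0.05, in percent, with members higher at 2.1 mM to the right and lower members to the left, and the number measured in brackets. Proteasome genes (26 of 33 higher) and mitosis genes (24 of 26 lower) stand farthest from the dotted lines, which mark the 7.24% and 6.6% of all genes.

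Some of the genes that import cystine and make glutathione rose. Of 14 measured members of that list 6 were higher and 2 lower, with a median log2 difference of 0.89. Slc7a11, the transport subunit of the cystine importer, had 6.16, 6.09 and 6.07 at 2.1 mM, against 1.37, 1.51 and 1.55 at 0.14 mM. All 3 arrays of the higher dose lay far above the lower dose, a 24.7-fold rise (log2 4.63, SE 0.52, adjusted p = 5.53e-05). Its partner chain Slc3a2 rose 2.17-fold (adjusted p = 0.00388). Gclm, the modifier subunit of glutamate-cysteine ligase, had 7.07, 6.98 and 6.96 at 2.1 mM and 4.91, 5.11 and 5.02 at 0.14 mM, a 3.98-fold rise (SE 0.372 on the log2 scale, adjusted p = 0.00191). Its catalytic partner Gclc differed by 0.24 and did not pass (adjusted p = 0.665). Gss, which completes glutathione, had 2.82, 2.97 and 2.85 at 2.1 mM and 1.80, 1.81 and 1.69 at 0.14 mM, a 2.16-fold rise (adjusted p = 3.77e-05). The members that fell were glutathione peroxidases, which spend glutathione to reduce peroxides. Gpx1 fell 2.43-fold (log2 -1.28, SE 0.158, adjusted p = 0.000104) and Gpx4 1.73-fold (adjusted p = 0.00714). Chac1, which degrades glutathione, rose 3.14-fold (adjusted p = 0.037).

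Sulfiredoxin and thioredoxin reductase rose while most of their pathway did not pass. Srxn1, which restores overoxidized peroxiredoxins, had 6.40, 6.34 and 6.34 at 2.1 mM and 2.96, 2.96 and 3.06 at 0.14 mM. The arrays of the 2 doses were more than 3 log2 units apart, a 10.3-fold rise (log2 3.37, SE 0.422, adjusted p = 0.000124). Txnrd1, the reductase of thioredoxin, rose 1.84-fold (adjusted p = 0.0121). Of the 11 measured members of the thioredoxin list 2 rose (4 without 0 mM replicate 1) and 1 fell, with a median of -0.09. The member that fell was Msrb1, a methionine sulfoxide reductase, at -0.51 (adjusted p = 0.0296), and its adjusted p was above 0.05 without any 1 of the 6 compared arrays.

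Heme oxygenase gave the lowest p-value among all named genes. Hmox1, which breaks heme into biliverdin, iron and carbon monoxide, had 7.68, 7.47 and 7.55 at 2.1 mM and 4.44, 4.50 and 4.51 at 0.14 mM. It rose 8.49-fold (log2 3.09, SE 0.217, adjusted p = 2.92e-07), and with the control level as a term the difference was 3.42 (adjusted p = 3.60e-05). Iron transporters rose with it, in a list with 5 of 14 members higher and 0 lower (median 0.85, 2 higher without 0.14 mM replicate 1). Slc11a1, the metal transporter of the phagosome, rose 2.96-fold (adjusted p = 0.00597). Slc40a1, the iron exporter ferroportin, rose 2.94-fold (adjusted p = 0.0122) and Slc11a2, the importer of ferrous iron, 2.78-fold (adjusted p = 0.0137). Without 0.14 mM replicate 1 the adjusted p of these was 0.0656 for Slc40a1 and 0.0635 for Slc11a2. Fth1, the ferritin heavy chain, differed by 0.11 (adjusted p = 0.522).

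The probe sets for the transferrin receptor Tfrc, which takes up iron, disagreed in size, a gene looked at after its values were seen. The brightest had 6.65, 6.59 and 6.51 at 2.1 mM and 5.41, 5.47 and 5.51 at 0.14 mM, a difference of 1.12 that did not pass (SE 0.564, adjusted p = 0.201). A second probe set had 5.16, 5.04 and 5.02 at 2.1 mM and 1.95, 2.51 and 2.19 at 0.14 mM, a 7.27-fold rise (adjusted p = 0.00228). Another rose 11.4-fold (adjusted p = 0.000966). All 3 were higher at 2.1 mM, by sizes from 1.12 to 3.51. The doses did not overlap in any of them, which was also so for 50.4% of all genes. The array also carries control probe sets for Tfrc outside the test, and their differences were 2.87, 2.83 and 3.24 for the 3', middle and 5' parts.

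Enzymes that supply NADPH or reduce reactive aldehydes and quinones were mixed. In the NADPH list 3 of 9 rose and 2 fell. The count that rose was 1 without 0.14 mM replicate 1 or 2.1 mM replicate 1 or 2, and the count that fell was 1 without any 1 of the compared arrays. Me1, malic enzyme, had 3.79, 3.72 and 3.63 at 2.1 mM and 2.54, 2.60 and 2.69 at 0.14 mM, a 2.14-fold rise (adjusted p = 0.00489), while Pgls of the pentose phosphate path fell 1.93-fold (adjusted p = 0.00509). A dimmer probe set of Me1 had 0.33 and did not pass (adjusted p = 0.369). Of 19 detoxification enzymes 4 rose and 0 fell, with a median of 0.08. Ptgr1, which reduces reactive alkenals, had 4.66, 4.64 and 4.67 at 2.1 mM and 3.15, 3.25 and 3.25 at 0.14 mM and rose 2.72-fold (adjusted p = 0.000154). Cbr3, a carbonyl reductase, rose 3.29-fold (adjusted p = 0.00352). Nqo1, the quinone reductase often used to report NRF2 activity, had 1.66, 1.48 and 1.67 at 2.1 mM and 0.42, 0.78 and 0.69 at 0.14 mM, a difference of 0.98 that did not pass (adjusted p = 0.13).

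The transcripts of NRF2 itself, Nfe2l2, and of its inhibitor Keap1 differed by -0.05 (adjusted p = 0.953) and 0.05 (adjusted p = 0.962), and the sign of the Keap1 difference turned under other settings. Among NRF2 and its regulators 3 of 12 rose and 0 fell. Sqstm1, the autophagy receptor p62 that also binds KEAP1, had 7.89, 7.84 and 7.87 at 2.1 mM and 5.85, 5.90 and 5.99 at 0.14 mM, a 3.87-fold rise (adjusted p = 0.000862). Cul3, the scaffold of the KEAP1 ubiquitin ligase, rose 2.02-fold (adjusted p = 0.00928), but its probe set of largest variance had -1.15 (adjusted p = 0.147). In the list of superoxide and NADPH oxidase genes 2 of 11 rose (1 without 0.14 mM replicate 1 or 3 or 2.1 mM replicate 1) and 2 fell (1 without any 0.14 mM array or 2.1 mM replicate 2 or 3). Ncf1, a cytosolic subunit of the NADPH oxidase that makes superoxide, fell 2.39-fold (adjusted p = 0.00168).

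The promoters of Slc7a11, Srxn1, Gclm and Me1, and of Procr from the coagulation list, are printed. They show which of 4 motif cores lie near the start of these transcripts, all of which rose. Each printed window holds a match, and windows without a match are not shown. Windows run from 250 bases before to 50 bases after the annotated start in RefSeq, build GRCm38.p6, read 5′ to 3′ on the gene's strand. Capitals mark TGACNNNGC (antioxidant response element core), TGANTCA (AP-1 site, which the first motif can contain), TGATGNAA (amino acid response element core) or GAANNTTC (part of the heat shock element), each searched on both strands, and positions count from the start as 1. The Slc7a11 window is chr3:50443564-50443863, minus strand, with TGATGCAA at -66 and, on the other strand, at -47. The Srxn1 window is chr2:152105274-152105573, plus strand, with TGAGTCA at -102 and -45 and an antioxidant core at 29. The Gclm window is chr3:122245307-122245606, plus strand, with an antioxidant core at -134. The Procr window is chr2:155750967-155751266, plus strand, and the Me1 window is chr9:86695865-86696164, minus strand. Both hold TGACTCAGC, an antioxidant core and AP-1 site in one, at -154 in Procr and at -6 in Me1.
Slc7a11: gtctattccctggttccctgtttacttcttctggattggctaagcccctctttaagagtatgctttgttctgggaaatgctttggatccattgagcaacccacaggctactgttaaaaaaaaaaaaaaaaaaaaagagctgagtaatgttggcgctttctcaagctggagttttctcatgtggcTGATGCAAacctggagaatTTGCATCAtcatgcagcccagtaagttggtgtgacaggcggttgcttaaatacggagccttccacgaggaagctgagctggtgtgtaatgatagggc
Srxn1: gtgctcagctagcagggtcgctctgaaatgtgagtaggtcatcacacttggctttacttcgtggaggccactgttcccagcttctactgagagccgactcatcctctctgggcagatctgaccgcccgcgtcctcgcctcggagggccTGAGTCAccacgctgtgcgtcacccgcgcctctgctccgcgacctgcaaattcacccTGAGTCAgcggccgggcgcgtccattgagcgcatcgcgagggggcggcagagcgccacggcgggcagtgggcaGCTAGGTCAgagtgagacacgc
Gclm: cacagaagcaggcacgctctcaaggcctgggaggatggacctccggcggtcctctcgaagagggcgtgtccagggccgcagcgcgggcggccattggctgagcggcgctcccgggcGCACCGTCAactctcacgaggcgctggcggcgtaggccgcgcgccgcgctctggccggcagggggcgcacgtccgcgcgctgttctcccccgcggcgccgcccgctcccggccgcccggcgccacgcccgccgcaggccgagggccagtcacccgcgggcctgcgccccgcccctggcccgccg
Procr: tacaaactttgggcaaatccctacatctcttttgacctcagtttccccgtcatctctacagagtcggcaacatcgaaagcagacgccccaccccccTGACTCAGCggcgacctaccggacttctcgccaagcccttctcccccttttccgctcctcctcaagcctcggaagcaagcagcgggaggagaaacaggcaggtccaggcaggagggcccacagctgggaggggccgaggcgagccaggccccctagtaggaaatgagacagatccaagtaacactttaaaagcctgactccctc
Me1: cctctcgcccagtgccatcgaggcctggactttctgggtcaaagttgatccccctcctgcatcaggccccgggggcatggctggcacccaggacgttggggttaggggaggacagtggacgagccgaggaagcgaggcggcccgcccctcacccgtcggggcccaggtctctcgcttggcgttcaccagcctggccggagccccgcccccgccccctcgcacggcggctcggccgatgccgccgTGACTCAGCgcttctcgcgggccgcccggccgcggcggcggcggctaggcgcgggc

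These matches are common. The antioxidant core lies in 12.4% of 32851 RefSeq promoter windows and in a window of 16.2% of the array's genes that have one, against 16.8% of genes that rose and 15.2% of genes that fell. The 79 measured genes of the 6 antioxidant lists had 23 members that rose and 5 that fell, and 19 of those that rose had a window. In 5 of the 19, Gclm, Txnrd1, Srxn1, Me1 and Mafk, the window held the antioxidant core, and in 4, Slc7a11, Chac1, Slc1a4 and Ptgr1, the amino acid core. The amino acid core lies in 3.97% of all windows, and in a window of 3.24% of the array's genes, 2.91% of those that rose and 2.32% of those that fell. The AP-1 site was found for 6.11% of genes that rose and 5.04% of those that fell, against 7.54% of the array's genes. Among changes of at least 4-fold it was found for 10 of 59 genes that rose and 4 of 44 that fell. For the same genes the antioxidant core was found in 10 of 59 and 5 of 44, and the amino acid core in 2 of 59 and 4 of 44. The part of the heat shock element was found in 4 of 59 and 5 of 44, against 7.60% of the array's genes. A match is a string of letters in this window and says nothing of whether a factor binds there.

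**Figure D2:**
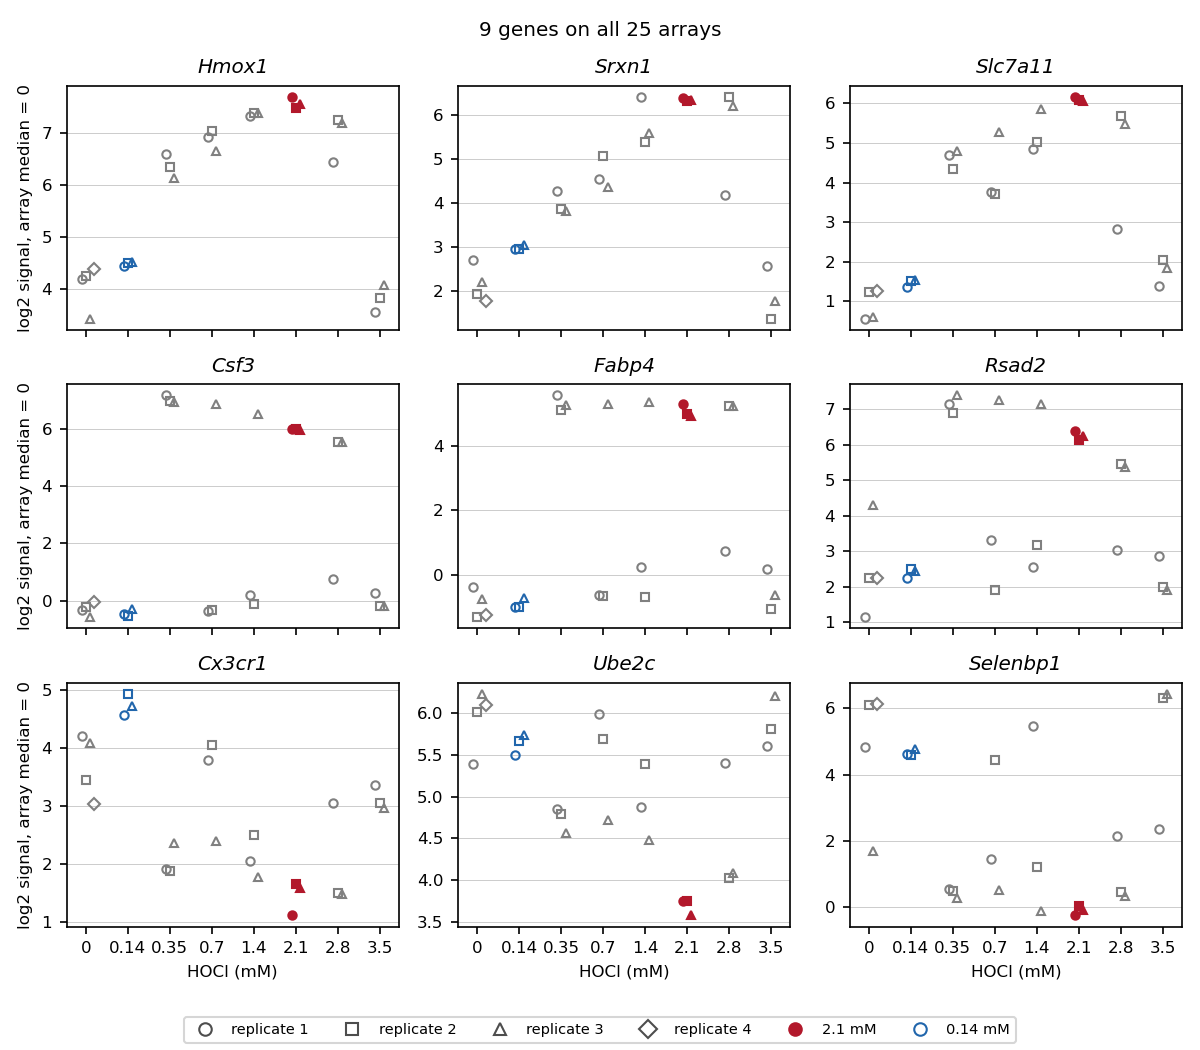
Log2 signal (array median 0) of 9 genes on all 25 arrays by HOCl dose in mM, with 2.1 mM filled, 0.14 mM in blue and 1 marker shape per replicate number. Hmox1 and Srxn1 were higher at each dose from 0.35 to 2.1 mM than at 0.14 mM on every array, while Csf3, Fabp4 and Rsad2 were high on only 1 array each at 0.7 and 1.4 mM.

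Most proteasome genes rose. Of 33 measured subunits and assembly factors 26 were higher and 0 lower, where 7.24% of all genes were higher, and the median log2 difference was 0.58. Those that passed rose by 0.42 to 1.45. Psmd7, a lid subunit, rose most, with 5.28, 5.19 and 5.10 at 2.1 mM and 3.62, 3.83 and 3.75 at 0.14 mM, a 2.74-fold rise (adjusted p = 0.000354). Psmd11, another lid subunit, had 7.0, 6.97 and 6.95 at 2.1 mM and 6.00, 6.02 and 6.01 at 0.14 mM, a 1.95-fold rise (adjusted p = 0.00021). Psma7, a subunit of the catalytic core, rose 1.93-fold (adjusted p = 0.000354) and Psmc6, an ATPase of the base, 2.08-fold (adjusted p = 0.000258). Their probe sets were not uniform: the one of largest variance had 0.31 for Psmd11 (adjusted p = 0.71) and 0.08 for Psmc6 (adjusted p = 0.911), and 21 subunits passed when such probe sets stood for the genes. The count was 30 when only the 6 arrays were fitted, 19 to 28 when 1 array was left out, and 0 with the control level as a term.

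Ubiquitin and quality control factors that feed the proteasome rose as well, 7 of 15 with 1 lower and a median of 0.78 (0 lower without any 1 of the compared arrays, and 2 without 1.4 or 2.8 mM replicate 1). Zfand5, which stimulates the proteasome, had 6.22, 6.11 and 6.11 at 2.1 mM and 4.26, 4.32 and 4.34 at 0.14 mM, a 3.58-fold rise (adjusted p = 0.0018). Vcp, the ATPase that pulls ubiquitinated proteins from complexes, rose 1.84-fold (adjusted p = 0.00228), and Usp14, the proteasome's deubiquitinase, 1.90-fold (adjusted p = 0.012). The autophagy list had 6 of 24 higher and 1 lower (2 lower without 0 mM replicate 1). Gabarapl1, an autophagosome protein, rose 3.70-fold (adjusted p = 0.00145) and Wipi2, which marks the site where autophagosomes form, 2.98-fold (adjusted p = 0.000924). A dimmer probe set of Wipi2 had -0.86 and did not pass (adjusted p = 0.0628). Tfeb, the transcription factor that drives lysosome genes, fell, with 1.21, 1.09 and 0.83 at 2.1 mM and 2.67, 2.45 and 2.83 at 0.14 mM (3.04-fold lower, adjusted p = 0.000227).

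Chaperones rose in part. Of 21 heat shock genes 6 were higher and 0 lower, with a median of 0.45. Hspa4l, a member of the Hsp110 family, had 5.43, 5.37 and 5.26 at 2.1 mM and 2.11, 2.42 and 2.36 at 0.14 mM, an 8.32-fold rise (SE 0.654 on the log2 scale, adjusted p = 0.00476). Its relative Hsph1 rose 2.80-fold (adjusted p = 0.00291). Hsp90aa1, the inducible Hsp90, had 7.86, 7.74 and 7.67 at 2.1 mM and 6.37, 6.51 and 6.46 at 0.14 mM, a 2.48-fold rise (adjusted p = 0.000488). The inducible Hsp70 genes did not pass. Hspa1a lay below the array median on all 6 arrays and differed by 0.13 (adjusted p = 0.903), and Hspa1b differed by 1.29 (adjusted p = 0.184).

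Of 20 genes of the unfolded protein response 5 rose and 0 fell, with a median of 0.49, and Dnajc3, an inhibitor of translation-arresting kinases, rose 2.95-fold (adjusted p = 0.0072). Its probe set of largest variance had -1.01 (adjusted p = 0.306). Another, dimmer probe set of Dnajc3 passed in the opposite direction, at -0.77 (adjusted p = 0.0453). The count of 5 fell to 1 or 2 without any 1 of the compared arrays and to 3 without 0.35 mM replicate 1, 0.7 mM replicate 1 or 2.8 mM replicate 2 or 3. Of 23 ATF4 genes 3 rose and 0 fell, and 1 without any 1 of the compared arrays. Slc7a1, an importer of cationic amino acids, rose 2.31-fold (adjusted p = 0.000532). Ddit3, which encodes the stress factor CHOP, had 3.01, 2.90 and 2.97 at 2.1 mM and 2.42, 2.67 and 2.73 at 0.14 mM (difference 0.36, adjusted p = 0.59), and Atf3 differed by 0.36 (adjusted p = 0.703). Of 20 aminoacyl-tRNA synthetases, which load tRNAs with amino acids, 7 rose and 1 fell (2 or 3 rose without any 1 of the compared arrays). Tars, for threonine, rose 2.15-fold (adjusted p = 0.000624), while Vars, for valine, fell 2.29-fold (adjusted p = 0.0137).

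**Figure D3:**
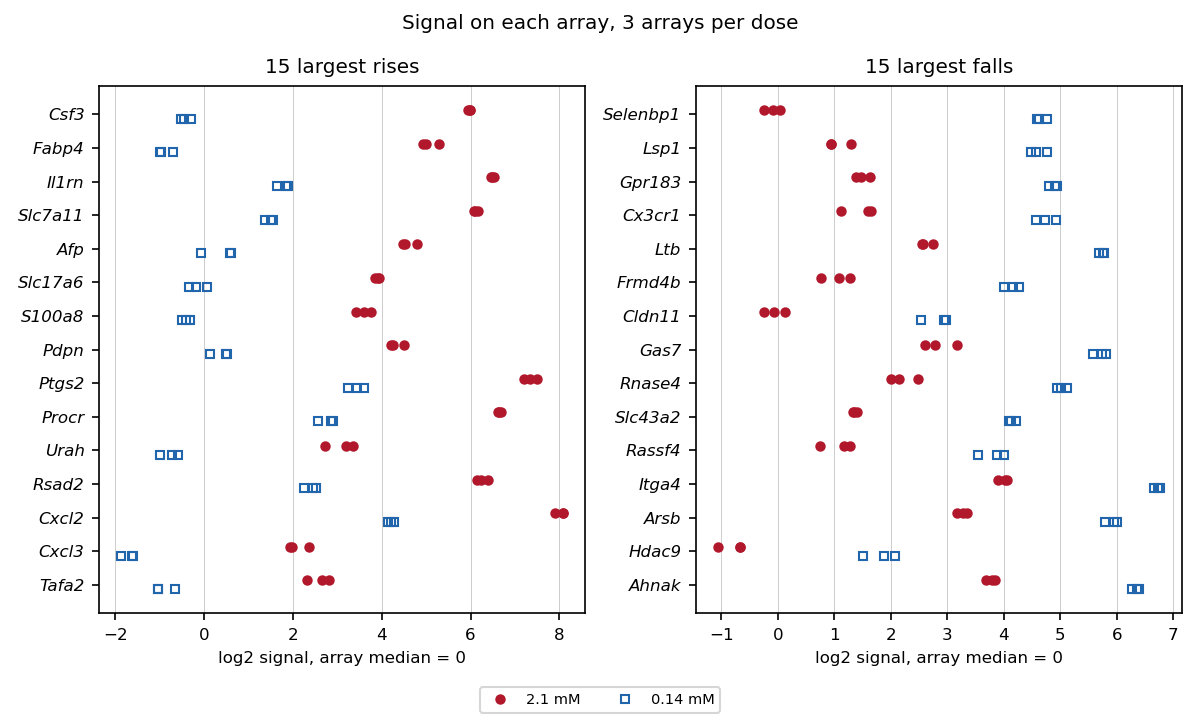
Log2 signal (array median 0) on each of the 6 arrays for the 15 genes with the largest rises and the 15 with the largest falls among those that passed, 2.1 mM as filled circles and 0.14 mM as open squares. The 30 genes were chosen among those whose doses did not overlap, and the widest gap is that of Csf3.

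Inflammatory genes were among the largest rises. Csf3, the granulocyte colony-stimulating factor, had 5.98, 5.99 and 5.95 at 2.1 mM and -0.45, -0.53 and -0.29 at 0.14 mM. The measured difference was 6.40 on the log2 scale (SE 1.61, adjusted p = 0.0134). The signal at 0.14 mM was below the array median, so the fold is a bound: at least 62.7-fold, with the dim dose set to the array median. That floor was chosen after the values were seen, since no detection calls were used, and it serves for each bound below. Il1rn, the antagonist of interleukin 1, had 6.54, 6.48 and 6.45 at 2.1 mM and 1.63, 1.89 and 1.85 at 0.14 mM, a 26.0-fold rise (adjusted p = 0.00767). Ptgs2, cyclooxygenase 2 of prostaglandin synthesis, had 7.5, 7.20 and 7.34 at 2.1 mM and 3.23, 3.60 and 3.44 at 0.14 mM, a 15.2-fold rise (adjusted p = 0.00399). In each the doses did not overlap, which was a condition for the largest rises. At 0.7 mM the replicates of each ranged more widely than this difference, by 7.23 for Csf3, 4.85 for Il1rn and 4.07 for Ptgs2. Of 24 cytokines and mediators 9 rose and 0 fell, with a median of 1.04 (5 rose without 0.14 mM replicate 1 or any 1 of the 2.1 mM arrays). Osm, oncostatin M, rose 4.00-fold (adjusted p = 0.00412). Il6 was dim at the lower dose, with 1.49, 1.27 and 1.10 at 2.1 mM and -1.21, -1.33 and -1.46 at 0.14 mM, at least 2.44-fold higher (adjusted p = 0.0379). The lower dose is at the level of the TrpnX control probe sets, -1.64 to -1.08 on the 6 arrays. Tnf had 6.45, 6.32 and 6.39 at 2.1 mM and 4.26, 4.12 and 4.28 at 0.14 mM, a difference of 2.16 that did not pass (adjusted p = 0.0842).

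Chemokines that attract neutrophils and monocytes were among the rises. Of 17, 5 rose and 2 fell. Without any 1 of the compared arrays 2 rose, and 1 fell without any of them but 0.14 mM replicate 1. Cxcl3 had 2.36, 1.97 and 1.93 at 2.1 mM and -1.60, -1.63 and -1.87 at 0.14 mM, within or below the range of those controls, and was at least 4.25-fold higher (adjusted p = 0.0118). Cxcl2 rose 14.1-fold (adjusted p = 0.0345), with an adjusted p of 0.0745 to 0.0967 without any 1 of the compared arrays. Ccl3 rose 5.15-fold (adjusted p = 0.00309). Cxcl16, a membrane-bound chemokine and scavenger receptor, fell 1.74-fold (adjusted p = 0.00582). Rel, 1 of the NF-kB subunits, rose 7.34-fold (adjusted p = 0.0037), with 3.52, 3.42 and 3.26 at 2.1 mM and 0.17, 0.82 and 0.59 at 0.14 mM. In all, 2 of 14 NF-kB genes rose and 0 fell, with a median of -0.09 (1 rose without any 1 of the compared arrays). Ly96, the partner of TLR4 in sensing bacterial lipid, rose 4.24-fold (adjusted p = 0.000549), in a list of toll-like receptor genes with 3 of 18 higher (1 without 0.14 mM replicate 1 or 3 or any 1 of the 2.1 mM arrays).

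Interferon-stimulated genes had a median of 1.11, but 2 of 25 passed, near the 7.24% of all genes that rose. The count was 0 when any 1 of the compared arrays was left out. Leaving out an array of 0.7 mM gave 1, 5 and 9 for replicates 1, 2 and 3, and leaving out replicate 3 of 1.4 mM gave 8. Omission of replicate 2 or 4 of 0 mM, 1 or 3 of 0.35 mM, 2 or 3 of 2.8 mM or 1 or 2 of 3.5 mM gave 1. Rsad2, the antiviral protein viperin, had 6.38, 6.13 and 6.23 at 2.1 mM and 2.24, 2.51 and 2.45 at 0.14 mM, a 14.4-fold rise (adjusted p = 0.0289). It did not pass without any 1 of the compared arrays (adjusted p 0.0645 to 0.088). Ifit1, an antiviral protein, differed by 3.40 (SE 1.31, adjusted p = 0.0949). When only the 6 arrays were fitted, 20 of the 25 were higher.

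The inflammatory and interferon genes also differed between replicate arrays of single doses. The standard errors pool that spread as if all arrays were independent. They would not cover a difference shared by all 3 arrays of a dose. Csf3 had -0.37, -0.31 and 6.86 on the 3 arrays of 0.7 mM, 0.22, -0.13 and 6.5 on those of 1.4 mM, and 0.78, 5.54 and 5.53 on those of 2.8 mM. At 0.7 and 1.4 mM the range among replicates was wider than the difference between 2.1 and 0.14 mM. Fabp4, Il1rn, S100a8, Cxcl2 and Rsad2 were likewise highest on replicate 3 at 0.7 and 1.4 mM, though Cxcl2 had 5.45, 2.75 and 8.11 at 1.4 mM, with replicate 1 between the others. The mean of the cytokine list was 2.63, 2.54 and 2.51 at 2.1 mM and 1.04, 1.12 and 1.10 at 0.14 mM. At 0.7 mM that mean was 0.89, 1.12 and 3.01. What separated those replicates was not tested.

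**Figure D4:**
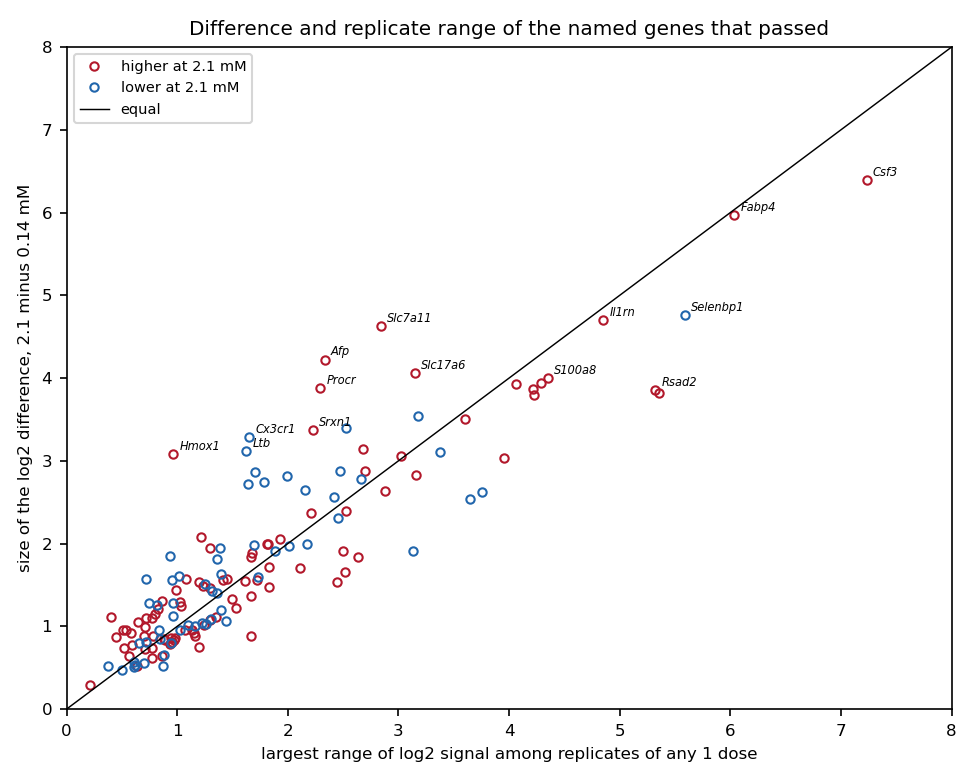
Size of the log2 difference between 2.1 and 0.14 mM against the largest range of log2 signal among the replicates of any 1 of the 8 doses, for the 150 named genes that passed, with the line of equality. Hmox1, Slc7a11, Srxn1, Cx3cr1 and Ltb lie above the line, and Csf3, Fabp4, Il1rn and Rsad2 below it.

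The difference was also set against the largest range among the replicates of any dose. It was the larger for 566 of the 1317 genes that rose and 459 of the 1201 that fell. Among the genes that passed it was the larger for 7 of 8 in the glutathione list, 20 of 26 in the proteasome list and 7 of 8 in the ubiquitin list. It was the larger for 2 of 5 in the heme and iron list, 1 of 3 NRF2 regulators, 1 of 4 superoxide genes, 1 of 5 genes of the unfolded protein response, 4 of 6 heat shock genes and 3 of 4 MAP kinase phosphatases. It was the larger for 1 of 9 cytokine genes, 0 of 2 interferon genes and 5 of 24 mitosis genes. Of the 15 largest rises it was the larger for 4, Slc7a11, Afp, Slc17a6 and Procr, and of the 15 largest falls for 12. This count is a description with no test.

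Some of the largest rises were in genes not usual in macrophages. Afp, alpha-fetoprotein of the fetal liver, had 4.79, 4.51 and 4.48 at 2.1 mM and -0.08, 0.58 and 0.61 at 0.14 mM, an 18.7-fold rise (log2 4.22, SE 0.574, adjusted p = 0.000237). Slc17a6, a vesicular glutamate transporter of neurons, had 3.95, 3.90 and 3.85 at 2.1 mM and -0.35, 0.07 and -0.18 at 0.14 mM, at least 14.9-fold higher (adjusted p = 0.00164). Both lay near the array median at the lower dose. S100a8, a calcium-binding protein abundant in neutrophils, was at least 12.0-fold higher (adjusted p = 0.0121). Afp and S100a8 were the 2 of 33 measured markers of other cell types that rose, and 0 fell. That is 6.06% of the list, near the 7.24% of all genes. The mean of those markers was 0.02, 0.09 and 0.07 at 2.1 mM and -0.17, -0.22 and -0.21 at 0.14 mM, but the median difference was 0.03. Without Afp and S100a8 the mean of the other 31 was -0.20 at 2.1 mM and -0.21 at 0.14 mM. Of the 33, 19, Mpo of neutrophils among them, lay below the array median in both groups, and 9 lay above it in both. The part of other cells in these rises was not tested. Fewer cells of a type and less RNA per cell cannot be told apart in such bulk samples.

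Genes of lipid handling and of clotting were also among the largest rises. Fabp4, a fatty acid chaperone of fat cells and macrophages, had 5.30, 4.99 and 4.93 at 2.1 mM and -0.98, -1.0 and -0.71 at 0.14 mM, at least 33.7-fold higher (measured log2 difference 5.97, SE 1.41, adjusted p = 0.00908). Fabp5, its relative, rose 3.77-fold (adjusted p = 0.0106). Lpl, lipoprotein lipase, fell 3.61-fold (adjusted p = 0.000269). Procr, the endothelial receptor of protein C, had 6.69, 6.65 and 6.62 at 2.1 mM and 2.57, 2.86 and 2.90 at 0.14 mM, a 14.7-fold rise (adjusted p = 0.000472). Plaur, the urokinase receptor, rose 5.26-fold (adjusted p = 0.00466). Of 14 coagulation genes 3 rose and 0 fell, and 5 rose without replicate 3 of 0.7 or of 1.4 mM. Pdpn, the mucin podoplanin, rose 15.3-fold (adjusted p = 0.0143, and 0.0508 without 2.1 mM replicate 1). Urah, an enzyme of urate breakdown, was at least 8.52-fold higher (adjusted p = 0.0198, and 0.0568 to 0.0681 without 0.14 mM replicate 1 or 3 or 2.1 mM replicate 1 or 2), and Tafa2, a secreted chemokine-like protein, at least 6.02-fold (adjusted p = 0.00245).

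Mitosis genes fell almost without exception. Of 26 measured members 24 were lower and 0 higher, where 6.6% of all genes were lower, and the median log2 difference was -1.59. Those that passed ranged from -2.31 to -0.91. Ube2c, the ubiquitin-conjugating enzyme of the anaphase-promoting complex, had 3.75, 3.75 and 3.57 at 2.1 mM and 5.5, 5.67 and 5.75 at 0.14 mM (3.86-fold lower, adjusted p = 0.00103). Cenpf, a kinetochore protein, had 0.80, 1.00 and 0.71 at 2.1 mM and 2.95, 3.30 and 3.19 at 0.14 mM (4.96-fold lower, adjusted p = 0.00515). No array of 2.1 mM reached the lowest array of 0.14 mM in either gene. Plk1, the polo kinase that starts mitosis, fell 4.93-fold (adjusted p = 0.0061), and Prc1, which bundles spindle microtubules, 3.96-fold (adjusted p = 0.00289). The list's count fell to between 10 and 15 without any 1 of the 6 compared arrays, and 26 were lower when only those 6 were fitted. With the control level as a term the count was 0. The mean of the list differed between replicates at other doses, with 2.72, 4.14 and 3.08 at 1.4 mM and 4.02, 2.42 and 2.38 at 2.8 mM. At 3.5 mM the mean was 4.24, 4.42 and 4.49, against 3.81 to 4.44 at 0 mM.

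Of 28 replication genes 3 were lower and 0 higher (median -0.64), 22 were lower when only the 6 arrays were fitted, and 1 without replicate 2 or 3 of either dose. Without 2.8 mM replicate 1 the count was 5. Mcm7, a subunit of the replicative helicase, fell 2.65-fold (adjusted p = 0.00756), and Pcna, the sliding clamp, differed by 0.03 (adjusted p = 0.918). Of 20 G1 genes 4 fell and 0 rose (2 without 2.1 mM replicate 3), led by Ccnd3, cyclin D3, with 2.49, 2.48 and 2.40 at 2.1 mM and 3.94, 3.97 and 4.13 at 0.14 mM (2.94-fold lower, adjusted p = 0.000881). Among p53 and apoptosis genes 3 of 24 rose and 2 fell (5 rose without 2.8 mM replicate 1, and 0 or 1 fell without 0.14 mM replicate 1 or 3 or 2.1 mM replicate 2 or 3). Mdm2, the ubiquitin ligase that p53 induces, rose 2.52-fold (adjusted p = 0.00983).

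Several receptors and other immune cell genes fell. Cx3cr1, the fractalkine receptor, had 1.11, 1.65 and 1.59 at 2.1 mM and 4.56, 4.93 and 4.72 at 0.14 mM (9.77-fold lower, log2 -3.29, SE 0.406, adjusted p = 0.000104). Gpr183, an oxysterol receptor that guides immune cells, had 1.62, 1.48 and 1.38 at 2.1 mM and 4.8, 4.91 and 4.94 at 0.14 mM (10.5-fold lower, adjusted p = 0.000288). Ltb, lymphotoxin beta, had 2.75, 2.56 and 2.57 at 2.1 mM and 5.69, 5.78 and 5.76 at 0.14 mM (8.69-fold lower, adjusted p = 9.05e-05). In each the arrays of the 2 doses were more than 2 log2 units apart. Itga4, an integrin chain, fell 6.61-fold (adjusted p = 0.000244) and Lsp1, a leukocyte actin-binding protein, 11.7-fold (adjusted p = 0.00661). Dimmer probe sets of Itga4 included 1 at -1.32 (adjusted p = 0.000407) and 1 at 0.06 (adjusted p = 0.74). Of 23 macrophage identity genes 5 fell and 1 rose, and 2 or 3 fell without 0.14 mM replicate 2 or 3 or 2.1 mM replicate 2 or 3. The count that rose was 0 without 0.14 mM replicate 1 or 2.1 mM replicate 1 or 2. It was 2 on omission of replicate 2 or 3 of 0.7 mM, 1 or 3 of 1.4 mM or 1 of 3.5 mM. Trem2, a lipid-sensing receptor, fell 3.76-fold (adjusted p = 0.00456), Fcgr1, a receptor for antibodies, 3.98-fold (adjusted p = 0.00601), and Spi1, the factor PU.1 that maintains the lineage, 2.18-fold (adjusted p = 0.0124, and 0.0529 without 0.14 mM replicate 3). Cd68 and Lyz2, lysosomal proteins of macrophages, differed by 0.06 (adjusted p = 0.816) and -0.07 (adjusted p = 0.735).

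The largest fall was that of Selenbp1, a selenium-binding protein that oxidizes methanethiol, with -0.25, 0.03 and -0.08 at 2.1 mM and 4.62, 4.59 and 4.77 at 0.14 mM. It was at least 25.2-fold lower (measured log2 difference -4.76, SE 1.31, adjusted p = 0.022). Its replicates differed widely elsewhere, from 1.70 to 6.12 at 0 mM, and without any 1 of the compared arrays its adjusted p was 0.0548 to 0.0666. The other falls among the 15 largest were those of Frmd4b, Cldn11, Gas7, Rnase4, Slc43a2, Rassf4, Arsb, Hdac9 and Ahnak, from -3.10 to -2.56. Hdac9, a histone deacetylase, did not pass without any 1 of the compared arrays (adjusted p 0.0626 to 0.0894). Cldn11, a tight junction protein, had 0.13, -0.07 and -0.25 at 2.1 mM and 2.54, 2.98 and 2.93 at 0.14 mM, and was at least 7.05-fold lower (adjusted p = 0.00252).

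Genes of the hypoxia response and glycolysis fell in part, 8 of 24 with 0 higher (4 or 5 without any 1 of the compared arrays). Egln1, the prolyl hydroxylase that senses oxygen, fell 2.86-fold (adjusted p = 0.00479), Pdk1, which keeps pyruvate from mitochondria, 3.50-fold (adjusted p = 0.0053), and Pfkl, phosphofructokinase, 2.68-fold (adjusted p = 0.00599). Of 25 immediate early genes 2 were higher and 1 lower, near or below the 7.24% and 6.6% of all genes. Without any 1 of the compared arrays 1 was higher, 4 were lower when replicate 1 of 0 mM was omitted, and 2 on omission of replicate 3 of 0.7 mM, 1 or 3 of 1.4 mM or 1 of 2.8 mM. Fos, an AP-1 subunit, had 2.40, 2.35 and 1.96 at 2.1 mM and 4.59, 4.85 and 4.87 at 0.14 mM (5.80-fold lower, adjusted p = 0.00718). Its relative Fosl1 had 4.49, 4.35 and 4.51 at 2.1 mM and 2.09, 2.56 and 2.52 at 0.14 mM, a 4.15-fold rise (adjusted p = 0.0026). Dusp5, a phosphatase that switches off ERK, rose 8.85-fold (adjusted p = 0.00471), in a list of MAP kinase phosphatases with 3 of 16 higher and 1 lower. Egr1, an immediate early factor, differed by -0.91 (adjusted p = 0.449).

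In the other lists few members passed, though in some the share was above the 7.24% and 6.6% of all genes. Of 21 cytosolic ribosomal proteins 0 passed in either direction by limma at adjusted p 0.05, 3 were lower and 0 higher at an unadjusted p under 0.05, and 1 was lower when only the 6 arrays were fitted. Their median was -0.03. These are the brightest probe sets, and a dimmer probe set of Rpl22, picked after its values were seen, was 6.26-fold lower (adjusted p = 0.00836). Of 28 subunits of oxidative phosphorylation 2 fell (1 without any 1 of the compared arrays, 0 mM replicate 4 or 0.35 mM replicate 1). Of 30 mitochondrial ribosomal proteins 4 rose and 1 fell (1 or 2 rose without any 0.14 mM array or 2.1 mM replicate 1 or 2, and 0 fell without replicate 3 of either dose and 2 without 2.8 mM replicate 1 or 3). Of 18 cholesterol genes 1 rose and 3 fell (1 fell without replicate 2 or 3 of either dose, and 0 rose without 0.14 mM replicate 1 or 3 or any 2.1 mM array). Of 30 ribosome biogenesis genes 5 rose and 0 fell (8 without 3.5 mM replicate 1), among them Noc3l, a nucleolar assembly factor, 2.77-fold (adjusted p = 0.00438). Of 28 splicing genes 1 rose and 2 fell (0 and 1 without any 1 of the compared arrays, and 2 rose without 0.35 or 0.7 mM replicate 2 or 3 or 3.5 mM replicate 1), and the RNA helicase Ddx17 fell 2.96-fold (adjusted p = 6.56e-05), with 4.58, 4.50 and 4.38 at 2.1 mM and 5.89, 6.18 and 6.09 at 0.14 mM. Of 10 histone genes 2 fell (0 or 1 without any 1 of the compared arrays). Of 16 lipid genes 3 rose and 3 fell (1 fell without 2.1 mM replicate 2 or 3), and of 13 metallothionein and zinc genes 4 rose (1 or 2 without any 1 of the compared arrays). The control genes Actb and Hprt differed by 0.08 (adjusted p = 0.711) and 0.18 (adjusted p = 0.653), and the 3' minus 5' signal of the Actb control probe sets, a sign of RNA quality, was 0.31 to 0.44 at 2.1 mM and 0.41 to 0.45 at 0.14 mM. For Gapdh it was -0.091 to -0.080 at 2.1 mM and -0.024 to -0.022 at 0.14 mM, with no overlap, and its part in the results was not tested.

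**Figure D5:**
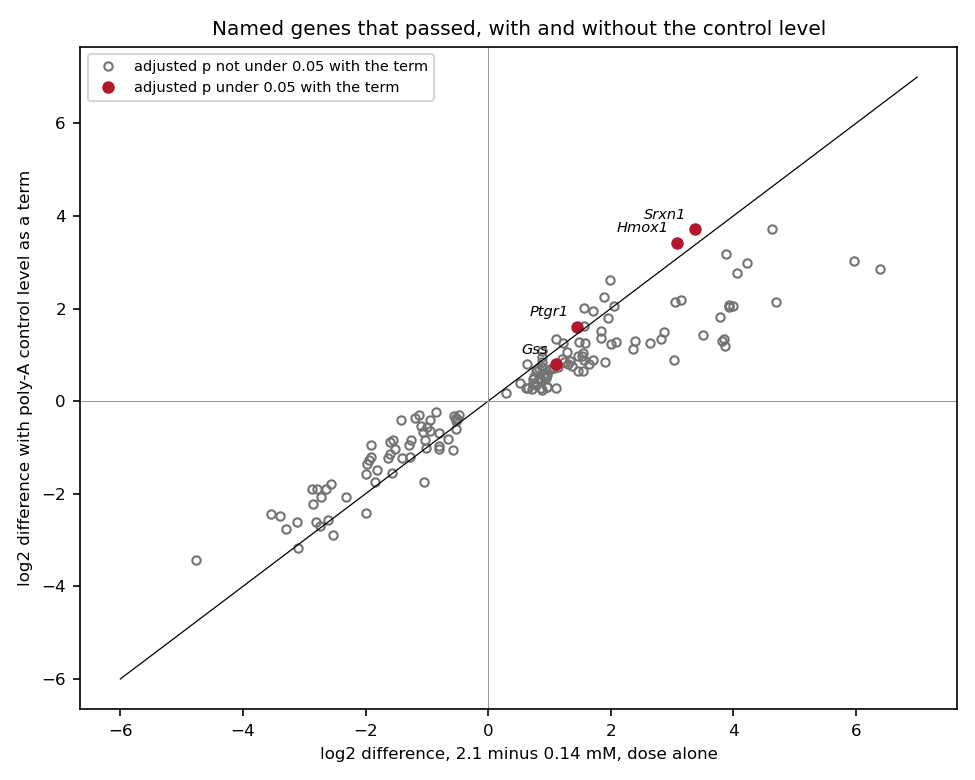
Log2 difference between 2.1 and 0.14 mM of the 150 named genes that passed, without (horizontal) and with (vertical) the level of the poly-A controls as a term, and the line of equality. Hmox1, Srxn1, Gss and Ptgr1, filled, passed with the term, and all 150 genes kept their direction.

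Few probe sets separated 0.14 mM from untreated cells by the test, which does not show that the doses are alike. At 0.14 against 0 mM 2 probe sets passed (0.00444%), with 4009 at an unadjusted p under 0.05, and at 2.1 against 0 mM 6015 passed (13.4%). These comparisons share arrays with each other and with the one above, so their values are given side by side only. The 2 probe sets at 0.14 mM were those of Ddx17 and Ranbp3l, named after their values were seen. Ddx17 had 1.14 at 0.14 against 0 mM and -0.43 at 2.1 against 0 mM. For Hmox1 the difference from 0 mM was 3.51 at 2.1 mM and 0.42 at 0.14 mM. For Gclm it was 3.68 at 2.1 mM and 1.68 at 0.14 mM, and for Slc7a11 5.19 and 0.56. Csf3 had 6.26 at 2.1 mM and -0.13 at 0.14 mM, and Cx3cr1 -2.24 and 1.05.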

How the data were processed

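Total RNA of 25 samples was measured on 25 Affymetrix mouse arrays. The authors deposited RMA values, per the submitters' processing notes, and these are log2 values in which the median of each array is 0. The base of the logarithm was inferred from their range, and the RMA software is not given in the sources used here. Of 45101 probe sets 64 controls were left out and 45037 tested. Of these 34945 carried 1 gene symbol, 932 several and 9160 none, and 18193 genes were represented by their brightest probe set.

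limma 3.58.1 in R 4.3.3 fitted a mean per dose to all 25 arrays, and the contrast of 2.1 minus 0.14 mM was adjusted by Benjamini-Hochberg over all probe sets. The 182 named genes include the 15 largest rises and 15 largest falls that passed with no overlap between the doses. They also include the members of each list with the lowest p (at most 4), and a fixed set named whatever their result. Tfrc and Ranbp3l are described beside these as chosen after their values were seen, and so is Ddx17 at 0.14 against 0 mM. Other list members were given outside this rule, among them Psmd7, Usp14, Plk1, Slc3a2, Gpx4, Gclc, Il6, Ifit1, Pcna, Csf1r and Hspa1b. Those members are not among the 182 named genes or the 150 of them that passed. The members and lists were chosen with earlier results of these data known. Alternatives were quantile normalization, a variance prior with trend and robust fit, removal of dim probe sets, the 6 arrays alone, array weights, the replicate number as a block, the control level as a term, the probe set of largest variance, other thresholds and each array left out. In simulated data for this contrast over 45037 probe sets, 40% of probe sets changed by 0.585 log2 units were called and 76% of those changed by 1. Of those changed by 2 log2 units 96% were called, and of those changed by 3 100%, with 11 false among all 167 calls. The simulation changed 50 probe sets of each size. Its noise was normal, independent between arrays and probe sets, with the same spread at every dose. It lacks the split between replicates seen in genes such as Csf3, so these shares may not carry over to the real arrays. Promoter windows came from RefSeq, GRCm38.p6, for 153 of the 182 named genes.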

Additional observations from a re-analysis of the deposited data

Results flagged for a closer look

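Among the 4 untreated arrays 1 stood apart from the other 3 by Dixon's test for 7 of 45 genes tested, where chance gives about 1 in 20. Replicate 1 had 3.12 for Il1rn, 1.20 for Slc17a6 and 5.73 for Gas7, each above the other 3, and 2.16 for Nfe2l2 and 4.60 for Hprt, each below them. Replicate 3 had 2.35 for Lsp1 and 2.79 for Rassf4, each below the other 3. These arrays enter the pooled spread but not the difference between 2.1 and 0.14 mM.

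Of the control probe sets, outside the test, those for poly-A transcripts and Tfrc were above the untreated arrays. The 5' poly-A controls averaged 2.16 at 2.1 mM, against 0.70 at 0.14 mM and 0.99 at 0 mM. The control probe sets for Tfrc averaged 4.54 for the 3' part, 3.13 for the middle and 3.29 for the 5' part at 2.1 mM, against 1.38, 0.04 and -0.33 at 0 mM.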

How the results depend on the processing

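Against 5495 probe sets called between 2.1 and 0.14 mM (3226 higher, 2269 lower), 14434 passed when only the 6 arrays were fitted (7849 higher, 6585 lower), 18927 with array weights (9904 and 9023), 11 with the control level as a term (8 and 3), 2149 at an adjusted p under 0.01, 2095 with at least a 2-fold change and 2733 with 1 probe set per gene (1428 and 1305). With 1 array left out the counts were 2833 to 6574 in all, 1462 to 3729 higher and 1050 to 2845 lower. Against 6015 at 2.1 versus 0 mM, 16406 passed with array weights and 39 with the control term, and 3120 to 6630 with 1 array left out. Against 2 at 0.14 versus 0 mM, 0 passed without dim probe sets, 8567 with array weights and 4 with the control term, and 0 to 56 with 1 array left out. With the replicate number as a block 4885 passed at 2.1 against 0.14 mM, 11939 when only the 6 arrays were fitted with that block (6491 and 5448), 3990 at 2.1 against 0 mM and 0 at 0.14 against 0 mM. Same-numbered arrays of the 2 compared doses did not deviate together (r of -0.375, -0.0108 and -0.233), so these were not treated as pairs. Whether replicate numbers pair arrays at other doses was not tested, and replicate 3 stood apart at 0.7 mM in the controls and in Csf3. Quantile normalization gave 6087.

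Of the 150 named genes that passed, 97 passed in each of the 25 fits with 1 array left out, 149 with quantile normalization, 150 in the 6 arrays alone and 135 with the probe set of largest variance. That probe set reversed Cul3 (-1.15), Sod2 (-0.35), Dnajc3 (-1.01), Ikbkb (0.35), Sc5d (-0.83), Sf3b1 (-1.64), Ube2d3 (-0.74) and Actb (-0.96). The control term reversed Itgax (-0.013), Atf3 (-0.068), Ddit3 (-0.039) and Hprt (-0.048). Keap1 turned to -0.037 with quantile normalization and -0.017 with array weights, and ranged from -0.038 to 0.109 with 1 array left out. The causes were not tested. The number of arrays, 3 at each dose, limits small differences.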
